A study of Mus musculus with 18 samples.

Results

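CAR-deficient CD4+ effector T cells of the small intestine lamina propria (siLP) were compared with wild type cells of the same site. The comparison used the 6 siLP libraries, 3 labelled CAR-deficient and 3 wild type, out of 18 libraries in the series, and 14876 genes of the 34162 in the table were tested. CAR, the constitutive androstane receptor, is encoded by Nr1i3. The first group is labelled C57BL/6 Nr1i3-/- and the second C57BL/6 CD45.1+. The hosts were Rag-deficient mice, which lack lymphocytes with rearranged receptors, and effector cells were sorted from them at week 3, about 500 cells per library. The labels give neither the age of the mice nor which hosts held which cells. The wild type cells differ from the CAR-deficient ones also by CD45.1, a variant of the surface phosphatase encoded by Ptprc on chromosome 1, so that the loss of CAR and the congenic marker cannot be told apart. The other 12 libraries came from spleen and colon lamina propria (cLP) and served here for the estimate of the spread and for differences of effect.

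CAR is a nuclear receptor that pairs with the retinoid X receptor and binds DNA at copies of the half-site AGGTCA. In liver it is known for driving genes that oxidise, conjugate and export foreign compounds and bile acids, with Cyp2b10 as its classical target. In T cells of the small intestine, which meet bile acids being taken back up from the gut, the receptor has been tied to the efflux pump gene Abcb1a and to Il10. The comparison asks which genes of these cells depend on it there.

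Levels are given as CPM, counts scaled to TMM-adjusted library size, in the order a, b and c. The letters stand for the endings of the column names (none, 1 and 2) and not for known animals or days. Total estimated counts were 21230581, 23388734 and 22493569 in CAR-deficient libraries, against 23696319, 24618028 and 25436389 in wild type libraries. In these, 16128, 17482 and 17228 genes had counts in CAR-deficient cells, and 15722, 18819 and 17013 in wild type cells. Both libraries a stood apart. On the first principal component of the 6 siLP libraries, with 34.7% of the variance, the library labelled CAR-deficient a lay at -48.6 and wild type a at -163, and the others between 26.7 and 69.6. Mitochondrial genes took 3.70% of the counts in the library labelled CAR-deficient a and 3.73% in wild type a, against 2.23% to 2.67% in the other 4 libraries. Ending a stood apart in spleen and cLP too. Over all 18 libraries the mitochondrial share was 3.70% to 3.98% at ending a, against 2.23% to 3.22% at the other endings. Genes with counts numbered 15466 to 16128 at ending a, against 17013 to 18819 at the other endings. In receptor beta V segments, Trbv26 held 68.5% and 52.0% of the counts in wild type a and b, while Trbv31 led in wild type c with 23.9%. The leading segments of the CAR-deficient libraries were Trbv17 (31.0%), Trbv13-2 (16.3%) and Trbv13-1 (33.6%). The parts of these differences in the results below were not tested.

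Nr1i3 (ENSMUSG00000005677, chr1:171213970-171220701, mm10) had counts in 2 of the 6 siLP libraries. It read 9.49, 0 and 0 CPM in CAR-deficient libraries, against 0, 0.18 and 0 CPM in wild type libraries. The 9.49 CPM are 196 counts, which is at odds with the label Nr1i3-/- and also above every wild type library. This library is therefore called the library labelled CAR-deficient a throughout, and results are also given without it. Its Tomm40l level, given below, was the lowest of the 6. The fold change of Nr1i3 was 5.56 ± 2.89 on the log2 scale (SE, adjusted p = 1.00 by edgeR's quasi-likelihood test), and without that library its sign was negative, with CAR-deficient libraries at 0 and a size that depends on the prior count. A count per gene does not show which exons the reads came from. Tomm40l, which encodes a subunit related to the mitochondrial import pore, overlaps Nr1i3 by 4691 bases on the other strand. It read 0.19, 2.70 and 2.41 CPM in CAR-deficient libraries, against 8.20, 19.0 and 17.6 CPM in wild type libraries, with no overlap between the genotypes. The log2 fold change was -3.07 ± 0.94 (edgeR, adjusted p = 1.00) and -2.54 without the library labelled CAR-deficient a. The library kit keeps no strand in its usual form, so reads of the shared bases cannot be assigned to either gene.

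The cells of both genotypes carried T cell markers. Cd4 read 236, 141 and 197 CPM in CAR-deficient libraries, against 208, 148 and 171 CPM in wild type libraries. Cd8a stayed at or below 0.30 CPM in CAR-deficient libraries and reached at most 1.58 CPM in wild type libraries. Among 8 T cell markers, 4 lay above 0 and 4 below 0, and 1 showed no overlap, beside 8.33% of all tested genes. This was Cd5, a restraint on receptor signals, with 121 ± 8.51 CPM in CAR-deficient cells and 163 ± 28.9 CPM in wild type cells.

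No gene passed an adjusted p of 0.05 in siLP. By edgeR, 0 of 14876 genes were called (0%), and all adjusted p-values rounded to 1.00. At an unadjusted p under 0.05 stood 641 genes (4.31%), 276 of them higher in CAR-deficient cells (1.86%) and 365 lower (2.45%). This share lay below the rate of 0.05 that the threshold itself allows with no difference. Levels of the genotypes did not overlap in 1239 genes (8.33%), 566 higher (3.8%) and 673 lower (4.52%). With labels that carry no difference, 3 against 3 libraries separate fully in either direction at a rate of 0.1, and the 8.33% lay below it. A lack of overlap is therefore given as a description only. With the column ending as a further term, 0 genes passed the adjusted threshold (smallest adjusted p = 0.778 by edgeR) and 402 higher (2.7%) and 527 lower (3.54%) had an unadjusted p under 0.05. DESeq2's Wald test called 35 genes, 9 higher and 26 lower, and limma's voomWithQualityWeights called 2. Of the 35, 13 had at least 3 counts in fewer than 3 of the 6 libraries. No overlap between the genotypes was seen in 23 of the 35, and 16 of the 35 reached a mean of 5 CPM in 1 genotype. An unadjusted p under 0.05 by edgeR was held by 27 of the 35. Both tools used the same counts, so these shares are no independent support. The spread between libraries was wide: the common biological coefficient of variation was 0.791, and 0.694 with the column ending. The labels do not say whether different animals gave the libraries of a genotype, so the p-values reflect library-to-library spread, which may be technical. All genes named from here on are therefore given as measured levels, and none is a call of the edgeR test.

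**Figure D1:**
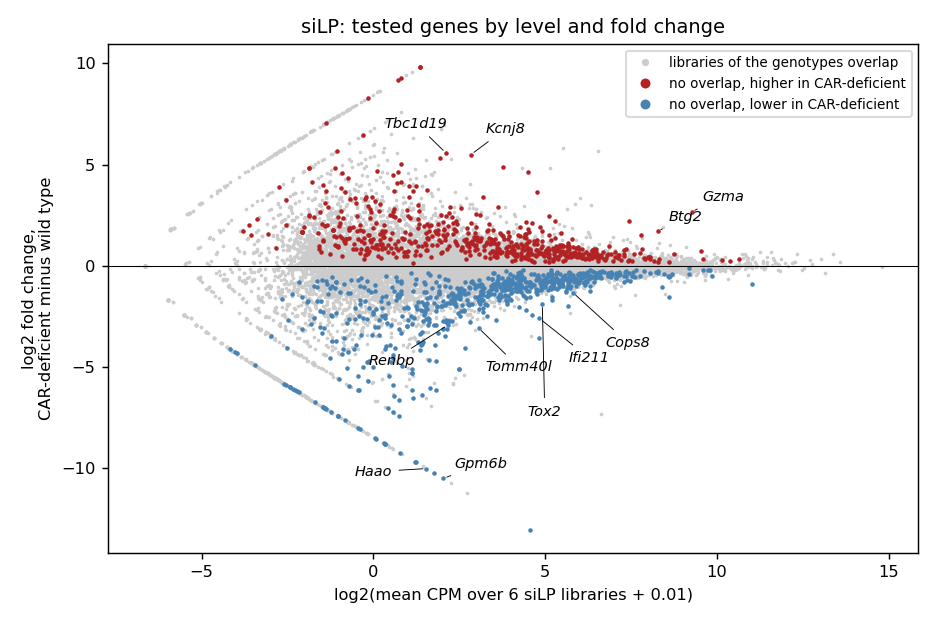
Each point is 1 of 14876 tested genes, with the log2 of its mean CPM over the 6 siLP libraries (plus 0.01) on the x axis and its fitted log2 fold change, CAR-deficient minus wild type, on the y axis. Red and blue mark the 566 higher and 673 lower genes whose libraries do not overlap between genotypes, and the fitted folds along the outer diagonals belong to genes at 0 in 1 genotype, where they depend on the prior count.

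The gene with the smallest p was Btg2 (ENSMUSG00000020423, chr1:134075170-134079120), an antiproliferative gene that is also an early response gene. It read 649.6, 374 and 396 CPM in CAR-deficient libraries, against 189, 117 and 130.4 CPM in wild type libraries. The lowest CAR-deficient library lay above the highest wild type library, and the means were 473 ± 153 and 145 ± 37.8 CPM (SD, n = 3 each). The log2 fold change was 1.70 ± 0.34 (edgeR, unadjusted p = 0.000117, adjusted p = 1.00), and 1.40 without the library labelled CAR-deficient a. By column ending the differences of log2(CPM + 1) were 1.78, 1.66 and 1.59, close to each other in the 3 pairs. By voomWithQualityWeights the adjusted p of Btg2 was 0.0134, and by DESeq2 it was 0.000921. The other voomWithQualityWeights call was the pseudogene Gm28438, at 40.8, 34.5 and 55.3 CPM in CAR-deficient libraries, against 5.27, 0 and 0 CPM in wild type libraries.

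Dennd5a (ENSMUSG00000035901, chr7:109893780-109960470), a DENN domain protein of Rab GTPase traffic, came next among the higher genes under the same rule. It read 47.5, 33.1 and 35.4 CPM in CAR-deficient libraries, against 13.97, 16.96 and 16.75 CPM in wild type libraries, with a log2 fold change of 1.28 ± 0.29 (edgeR, adjusted p = 1.00). The adjusted p of Dennd5a by DESeq2 was 0.000211. Of the lower genes, Cd55b, described below, had an unadjusted p of 0.000309 by edgeR but a mean under 5 CPM in both genotypes. Under the rule the smallest p among the lower genes belonged to Cops8 (ENSMUSG00000034432, chr1:90602981-90613341). Cops8 is a subunit of the COP9 signalosome, which removes the ubiquitin-like protein NEDD8 from cullins. It read 28.0, 21.8 and 46.3 CPM in CAR-deficient libraries, against 113, 57.5 and 69.8 CPM in wild type libraries, with a log2 fold change of -1.32 ± 0.32. For Cops8 DESeq2 gave an adjusted p of 0.0324. In Dennd5a and Cops8 the genotypes stood apart in every library.

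The bases from 250 before to 50 after the start of these 3 genes (RefSeq on GRCm38.p6, each on the gene's own strand, for Dennd5a the first of 2 listed starts) are shown. Sites of a CAR and retinoid X receptor pair further from the start would lie outside these windows and were not searched. Capitals mark the half-site AGGTCA or its reverse complement TGACCT, searched on both strands. A spaced direct repeat of the half-site, called DR4, was also searched. The Btg2 window is chr1:134079106-134079405 on the minus strand, the Dennd5a window chr7:109960421-109960720 on the minus strand and the Cops8 window chr1:90603175-90603474 on the plus strand.
Btg2: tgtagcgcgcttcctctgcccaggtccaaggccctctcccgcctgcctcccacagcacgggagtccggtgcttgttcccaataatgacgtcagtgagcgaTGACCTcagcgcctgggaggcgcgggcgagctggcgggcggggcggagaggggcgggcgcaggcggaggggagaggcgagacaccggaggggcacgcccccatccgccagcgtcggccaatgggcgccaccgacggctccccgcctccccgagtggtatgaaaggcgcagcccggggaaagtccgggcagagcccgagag
Dennd5a: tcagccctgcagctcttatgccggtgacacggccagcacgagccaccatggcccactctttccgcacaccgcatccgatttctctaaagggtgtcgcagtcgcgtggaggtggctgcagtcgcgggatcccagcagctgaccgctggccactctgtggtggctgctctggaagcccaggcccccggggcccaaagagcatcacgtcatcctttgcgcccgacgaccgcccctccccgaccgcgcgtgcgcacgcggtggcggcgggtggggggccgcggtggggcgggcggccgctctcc
Cops8: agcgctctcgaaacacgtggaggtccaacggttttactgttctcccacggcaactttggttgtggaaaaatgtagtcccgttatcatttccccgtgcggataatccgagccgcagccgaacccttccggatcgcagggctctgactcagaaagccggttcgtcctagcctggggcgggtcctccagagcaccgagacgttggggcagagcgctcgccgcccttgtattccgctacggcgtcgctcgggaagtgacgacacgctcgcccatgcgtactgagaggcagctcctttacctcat
The Btg2 window held 1 half-site and the other windows held 0, where 16.3% of all promoter windows in the table hold at least 1. Of the 30 genes named by smallest p, 21 had a promoter in the table, too few for a comparison over the set. Of these, 2 held a half-site, where 18.1% of all genes with a promoter do. DR4 was found in 0 of them, where 0.0148% of all genes with a promoter hold it.

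Among genes whose mean reached 5 CPM in 1 genotype, 358 lay higher in CAR-deficient cells without overlap and 460 lower. The 15 of smallest p in each direction are described here, leaving out unnamed gene models, pseudogenes and receptor segments. All 30 kept their sign without the library labelled CAR-deficient a, and 11 of the 15 higher and 15 of the 15 lower genes then had an unadjusted p under 0.05. With the column ending as a term, 15 and 15 did. DESeq2 called 8 of the 30, namely Btg2, Dennd5a, Tbc1d19, Cops8, Haao, Gpm6b, Renbp and Nek2. Since the 30 genes were picked by p and by overlap, these counts add no support. Outside the 30, DESeq2 also called Sept10, Nr2f6 and Cd55b among the genes described below.

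**Figure D2:**
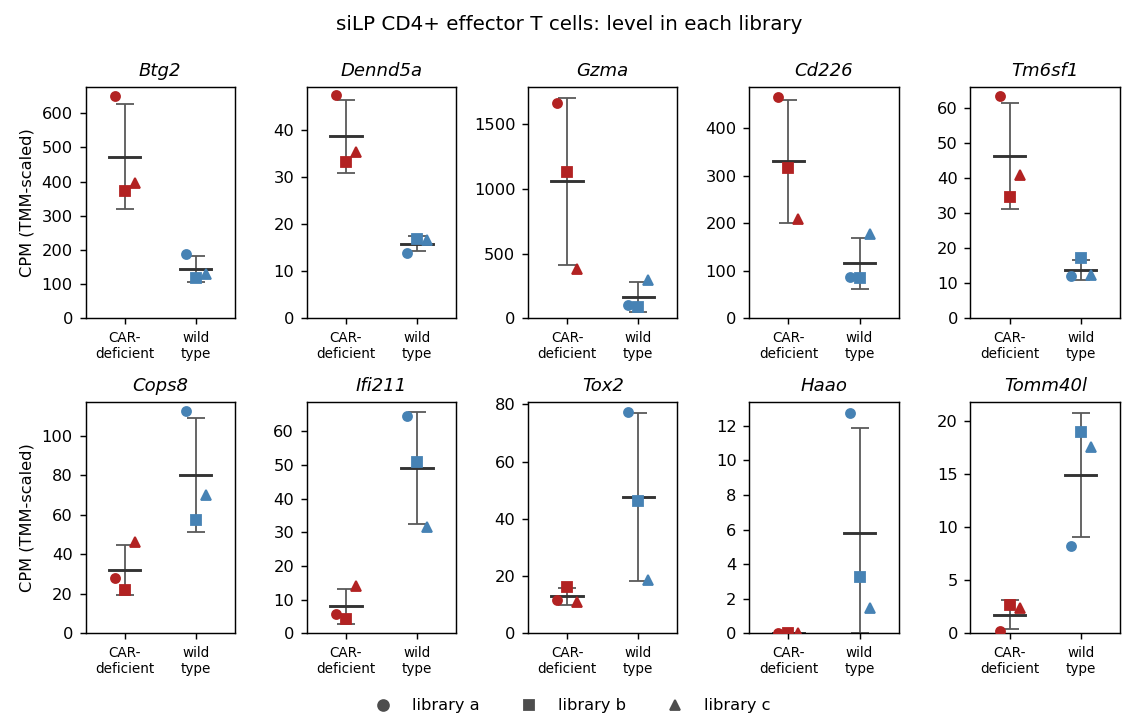
CPM of 10 genes in each siLP library, with CAR-deficient libraries in red and wild type libraries in blue; circles, squares and triangles are libraries a, b and c, and bars give the mean and SD (n = 3). The 10 genes were picked for having no overlap, so the genotypes stand apart in every panel by choice. Gzma and Cd226 of the libraries c lie near each other, at 384 against 301 CPM and 208 against 178 CPM. In Tox2 the CAR-deficient library b lies near the wild type library c.

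Gzma, a granule protease of cytotoxic lymphocytes, read 1669, 1129 and 384 CPM in CAR-deficient libraries, against 107, 92.0 and 301 CPM in wild type libraries (log2 fold change 2.67 ± 0.80). The 2 libraries c lay closest together. Cd226, an activating receptor of T and NK cells, read 466, 316 and 208 CPM in CAR-deficient libraries, against 86.3, 84.3 and 178 CPM in wild type libraries (log2 fold change 1.51 ± 0.51). Here too library c of wild type was the highest of its genotype, and library c of CAR-deficient cells the lowest.

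Itch, a ubiquitin ligase that restrains T cell responses, read 77.4, 100.3 and 68.9 CPM in CAR-deficient libraries, against 33.6, 41.7 and 62.0 CPM in wild type libraries. Camta2, a calmodulin-binding transcription activator, averaged 12.4 ± 3.16 CPM in CAR-deficient cells and 3.28 ± 2.42 CPM in wild type cells. Asxl2, a chromatin regulator of the Polycomb group, averaged 102 ± 9.91 CPM in CAR-deficient cells and 66.1 ± 4.17 CPM in wild type cells. Asxl2 showed one of the smaller differences of the 15, with a narrow spread in both genotypes. Ints6l, a paralog of an Integrator subunit gene, read 86.6, 26.8 and 24.7 CPM in CAR-deficient libraries, against 11.1, 14.2 and 11.4 CPM in wild type libraries, and the library labelled CAR-deficient a held most of that difference (log2 fold change 1.91, and 1.07 without it).

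Kcnj8, a pore subunit of ATP-sensitive potassium channels, read 22.5, 14.3 and 5.25 CPM in CAR-deficient libraries, against 0, 0.90 and 0 CPM in wild type libraries. Tbc1d19, of a family that inactivates Rab GTPases, read 12.5, 5.56 and 7.26 CPM in CAR-deficient libraries, against 0, 0.51 and 0 CPM in wild type libraries. Both genes were at or near 0 in each wild type library, so their folds rest on few reads. Atp8b4, a phospholipid flippase subunit, averaged 56.2 ± 5.66 CPM in CAR-deficient cells and 22.02 ± 7.67 CPM in wild type cells. Vps41, a subunit of the HOPS tether of lysosomes, averaged 86.5 ± 27.0 CPM in CAR-deficient cells and 48.9 ± 5.04 CPM in wild type cells. Tm6sf1 averaged 46.2 ± 15.1 CPM in CAR-deficient cells and 13.8 ± 2.87 CPM in wild type cells. In Tmem37 the libraries ran from 24.5 to 114 CPM in CAR-deficient cells and from 1.62 to 22.2 CPM in wild type cells, so the groups nearly touched. Fmo1, a flavin monooxygenase that oxidises foreign compounds, read 79.5, 62.1 and 38.3 CPM in CAR-deficient libraries, against 22.6, 37.1 and 28.5 CPM in wild type libraries (log2 fold change 1.03 ± 0.36).

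On the lower side stood genes at 0 in every CAR-deficient library. Haao, a dioxygenase of the kynurenine route of tryptophan breakdown, read 0, 0 and 0 CPM in CAR-deficient libraries, against 12.8, 3.25 and 1.47 CPM in wild type libraries. Set against a floor of 3 counts over the CAR-deficient group, its wild type mean was 130.3-fold higher. Gpm6b, a neuronal membrane glycoprotein gene, read 0 in the CAR-deficient libraries, against 19.4, 2.20 and 3.01 CPM in wild type libraries. Its wild type mean was 184-fold above that floor. Wild type library a held the highest level of both genes and raised these means, so wild type libraries b and c alone would give smaller folds. Sept10, a septin, was at 0 in all CAR-deficient libraries and also in wild type library c. In wild type libraries a and b it read 26.9 and 2.02 CPM, so library a carried nearly all of the signal. Trdc, the constant segment of the gamma-delta receptor's delta chain, read 0 in the CAR-deficient libraries, against 11.9, 6.64 and 1.61 CPM in wild type libraries. Another 5 genes with under 3 counts in each library of 1 genotype were an unnamed model or receptor V segments, in either direction.

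Ifi211, a member of the PYHIN family of interferon-inducible genes, many of which sense DNA, read 5.81, 4.34 and 14.04 CPM in CAR-deficient libraries, against 64.5, 51.0 and 31.5 CPM in wild type libraries (log2 fold change -2.60 ± 0.71). Its neighbours of the same chromosome 1 cluster went different ways. Ifi204 read 32.7, 33.0 and 39.9 CPM in CAR-deficient libraries, against 0.90, 4.37 and 24.9 CPM in wild type libraries, also without overlap. Ifi202b read 9.10, 3.96 and 0 CPM in CAR-deficient libraries and was at 0 in all wild type libraries. Of 13 tested PYHIN genes 4 lay above 0 and 9 below 0, with a median of -0.45, which was -0.06 without the library labelled CAR-deficient a. Copies of this family are alike in sequence, so the estimated counts may divide reads among them, which makes the single values uncertain.

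Tox2, a transcription factor of the Tox family, read 11.6, 16.2 and 10.8 CPM in CAR-deficient libraries, against 77.5, 46.4 and 18.8 CPM in wild type libraries (log2 fold change -1.88 ± 0.57). Prkcb, a protein kinase C of lymphocyte signalling, read 9.05, 40.9 and 36.7 CPM in CAR-deficient libraries, against 77.7, 72.0 and 54.9 CPM in wild type libraries. In Prkcb the library labelled CAR-deficient a was the lowest of the 6. Nek2, a centrosome kinase, averaged 0.36 ± 0.29 CPM in CAR-deficient cells and 5.03 ± 2.74 CPM in wild type cells. Spc24, a kinetochore protein, averaged 35.6 ± 7.10 CPM in CAR-deficient cells and 71.9 ± 13.7 CPM in wild type cells. Both encode parts of the machinery that separates chromosomes. Gart, an enzyme of purine synthesis, read 4.12, 13.7 and 14.1 CPM in CAR-deficient libraries, against 47.7, 31.1 and 18.9 CPM in wild type libraries. Renbp, an epimerase of amino sugars, averaged 1.04 ± 0.55 CPM in CAR-deficient cells and 7.93 ± 6.13 CPM in wild type cells. The other lower genes were Pign of GPI anchor synthesis (log2 fold change -1.30), Mccc1 of leucine breakdown (-1.87), Reps1 of endocytosis (-0.79) and Mrpl19 of the mitochondrial ribosome (-0.79).

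Adding the column ending as a term brought forward genes whose level differed among a, b and c but less within each pair. Itgb1, the integrin beta 1 chain, read 259.9, 208 and 322 CPM in CAR-deficient libraries, against 107, 56.9 and 259 CPM in wild type libraries. The genotypes overlapped, yet each CAR-deficient library lay above the wild type library of its ending, and the log2 fold change with the term was 1.14 (unadjusted p = 0.00169 by edgeR). Zfp36l2, which speeds the decay of AU-rich transcripts, read 765, 291 and 263 CPM in CAR-deficient libraries, against 292, 111 and 194 CPM in wild type libraries. Lilr4b, an inhibitory immunoglobulin-like receptor, read 1881, 1000.3 and 557 CPM in CAR-deficient libraries, against 1251, 713 and 343 CPM in wild type libraries. Cd7, a surface protein of T and NK cells, read 911, 1088 and 157 CPM in CAR-deficient libraries, against 561, 425 and 129.6 CPM in wild type libraries. In these 3 genes the endings set a range as wide as the genotypes. Pim2, a survival kinase, averaged 27.3 ± 2.56 CPM in CAR-deficient cells and 13.99 ± 6.23 CPM in wild type cells. Il1r2, the decoy receptor of interleukin-1, read 6.10, 12.2 and 5.17 CPM in CAR-deficient libraries, against 37.1, 49.1 and 19.8 CPM in wild type libraries. Actr1a of the dynactin complex, Polr2c of RNA polymerase II and the ribosomal protein gene Rps7 had blocked log2 fold changes of -0.82, -0.57 and -0.84. All 3 pairs were higher in 1730 genes (11.6%) and lower in 1915 (12.9%).

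Genes tied to CAR by earlier knowledge were mostly low in these cells. Of 28 genes listed as CAR and PXR targets or drug handling genes 16 were tested, and 0 of them had an unadjusted p under 0.05 in either direction. Of the 16, 7 lay above 0 and 9 below, with a median of -0.02 beside 0.00 for all tested genes. Cyp2b10 was at 0 in all 6 libraries. Abcb1a (ENSMUSG00000040584, chr5:8660077-8748575), the multidrug efflux pump MDR1, read 33.2, 74.0 and 63.4 CPM in CAR-deficient libraries, against 17.4, 31.4 and 51.8 CPM in wild type libraries. The genotypes overlapped, each CAR-deficient library lay above its counterpart by ending, and the log2 fold change was 0.76 ± 0.48 (edgeR, adjusted p = 1.00). Its paralog Abcb1b averaged 19.3 ± 8.70 CPM in CAR-deficient cells and 22.6 ± 7.52 CPM in wild type cells. Alas1, the first enzyme of heme synthesis and a CAR target in liver, read 0, 6.03 and 11.6 CPM in CAR-deficient libraries, against 30.6, 15.2 and 11.7 CPM in wild type libraries. Ephx1, a microsomal epoxide hydrolase, averaged 5.47 ± 1.65 CPM in CAR-deficient cells and 9.22 ± 1.85 CPM in wild type cells. Alas1 and Ephx1 were the 2 members without overlap, both lower, which is 12.5% of the 16 beside 8.33% of all tested genes.

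Of 30 glutathione and oxidative stress genes 14 lay above 0 and 16 below, with a median of -0.13. At an unadjusted p under 0.05 stood 0 higher and 2 lower members, beside 1.86% and 2.45% of all tested genes. Those 2 were the glutathione transferases Gsta4, with 0 in CAR-deficient libraries against 0.05, 4.29 and 0 CPM in wild type libraries, and Gstm1, with 0, 0 and 0.47 CPM in CAR-deficient libraries against 26.2, 3.03 and 0 CPM in wild type libraries. Wild type library b or a alone held most of each signal. Among 24 tested nuclear receptors 11 lay above 0 and 13 below. At an unadjusted p under 0.05 stood 0 higher and 2 lower ones, beside 1.86% and 2.45% of all tested genes. Nr1d1, the circadian repressor REV-ERB alpha, read 0 in CAR-deficient libraries, against 0, 1.84 and 2.98 CPM in wild type libraries. Nr2f6, an orphan receptor that damps T cell cytokine genes, read 0, 0.04 and 0.04 CPM in CAR-deficient libraries, against 6.85, 1.05 and 2.08 CPM in wild type libraries. Nr2c2, another orphan receptor, read 9.01, 16.9 and 10.1 CPM in CAR-deficient libraries, against 56.1, 28.9 and 20.4 CPM in wild type libraries. Nr2f6 and Nr2c2 showed no overlap on the lower side, and Nr4a2, described below, none on the higher side. Together they are 12.5% of the tested receptors, beside 8.33% of all tested genes.

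**Figure D3:**
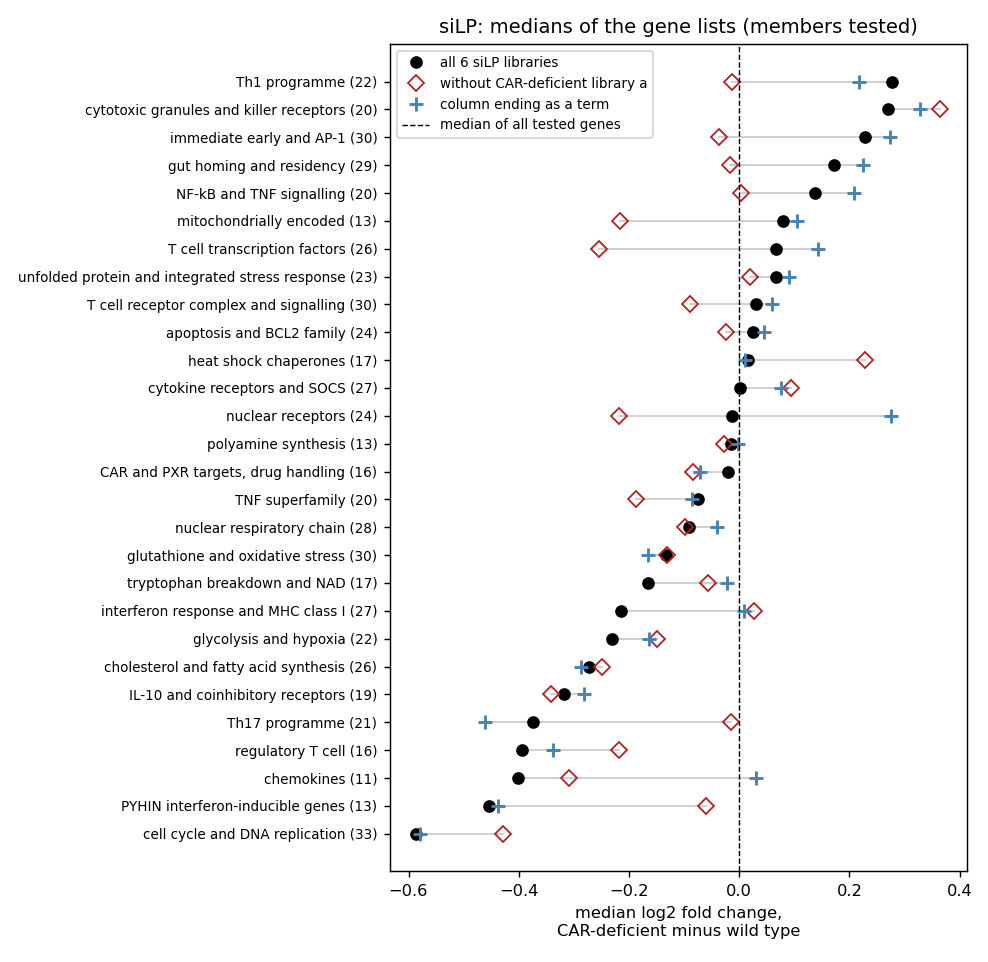
Median log2 fold change, CAR-deficient minus wild type, of each gene list in siLP (number of tested members in brackets), from all 6 libraries (black), without the library labelled CAR-deficient a (red diamonds) and with the column ending as a term (blue crosses). The dashed line is the median of all tested genes; cell cycle genes lie lowest at -0.59, and the Th1 list moves to -0.01, from 0.28, when that library is left out.

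Cell cycle and DNA replication genes lay below 0 in nearly the whole list. Of 33 tested members 31 lay below 0 and 2 above, and the median was -0.59, which was -0.43 without the library labelled CAR-deficient a and -0.58 with the column ending. At an unadjusted p under 0.05 stood 3 members, all lower, where 2.45% of all tested genes are lower by this rule. Another count, of members without overlap, gave 6, all lower, against 4.52% of all tested genes, and 23 were lower in all 3 pairs by ending, against 12.9% of all tested genes. The direction of this list was known from earlier results of these data, so it is no independent support. Ube2c, which hands ubiquitin to the anaphase-promoting complex, read 82.1, 126 and 80.7 CPM in CAR-deficient libraries, against 114, 257 and 166 CPM in wild type libraries. Mcm2, a subunit of the replicative helicase, read 23.9, 25.3 and 23.8 CPM in CAR-deficient libraries, against 30.01, 82.8 and 42.6 CPM in wild type libraries. Mki67, the proliferation marker, averaged 150.3 ± 34.3 CPM in CAR-deficient cells and 225 ± 55.5 CPM in wild type cells. Ube2c and Mki67 overlapped between genotypes and Mcm2 did not. Tyms, the enzyme that makes thymidylate, averaged 108 ± 9.85 CPM in CAR-deficient cells and 161 ± 26.9 CPM in wild type cells. Summed over the list, the libraries held 2517, 4682 and 3920 CPM in CAR-deficient cells, against 4278, 6583 and 4933 CPM in wild type cells. These sums overlapped between genotypes, with the library labelled CAR-deficient a the lowest, and each pair by ending had the CAR-deficient library below.

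**Figure D4:**
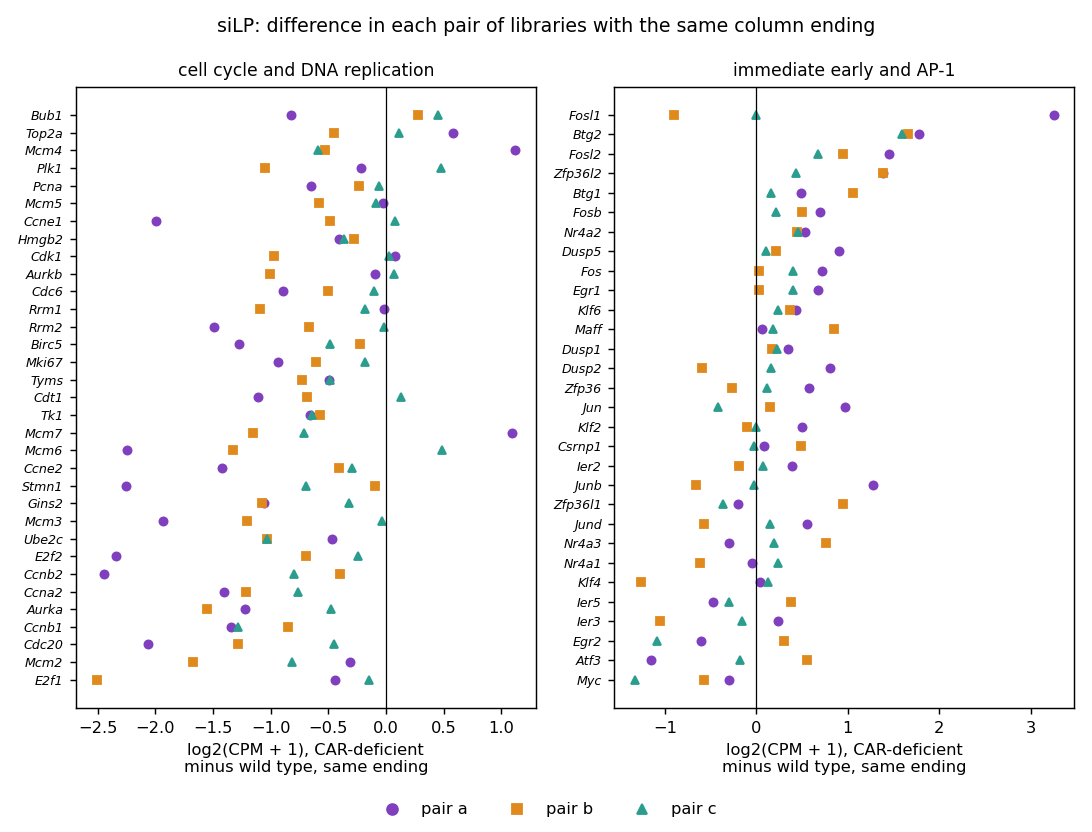
Difference of log2(CPM + 1), CAR-deficient minus wild type, in each of the 3 pairs of siLP libraries with the same column ending, for the 33 cell cycle genes (left) and the 30 immediate early genes (right), ordered by fitted fold change. Pair a (circles) is the most spread out, 23 cell cycle genes lie left of 0 in all 3 pairs, and 12 immediate early genes lie right of 0 in all 3.

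Immediate early and AP-1 genes, the first genes induced by receptor signals, leaned the other way. Of 30 tested members 22 lay above 0 and 8 below, with a median of 0.23, and 12 were higher in all 3 pairs against 11.6% of all tested genes. Without the library labelled CAR-deficient a the median was -0.04. The list sum was 15251, 8188 and 10071 CPM in CAR-deficient libraries, against 10148, 6817 and 8886 CPM in wild type libraries. Btg2 alone had an unadjusted p under 0.05, and Btg2 and Nr4a2 showed no overlap among the higher members. Of all tested genes, 1.86% and 3.8% are higher by these rules. Nr4a2, an orphan nuclear receptor of the early response, read 221, 165 and 165 CPM in CAR-deficient libraries, against 153, 121 and 120.3 CPM in wild type libraries. Myc, a driver of growth, went the other way without overlap, with 26.1 ± 5.88 CPM in CAR-deficient cells and 44.3 ± 11.6 CPM in wild type cells.

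Th1 genes, the interferon gamma programme of helper cells, had 16 of 22 members above 0 and a median of 0.28, which was -0.01 without the library labelled CAR-deficient a. Ifng read 7481, 2649 and 1303 CPM in CAR-deficient libraries, against 4446, 1387 and 1207 CPM in wild type libraries. The log2 fold change was 0.70 ± 0.62 (edgeR, adjusted p = 1.00), and it was -0.27 without that library. Ifng lay higher in each pair by ending, and it spread more among endings than between genotypes. Il18rap, a chain of the interleukin-18 receptor, read 504, 119.9 and 112 CPM in CAR-deficient libraries, against 154, 66.4 and 103 CPM in wild type libraries, with a log2 fold change of 1.19 that was 0.10 without the library labelled CAR-deficient a. Ly6c2, a marker of Th1 effector cells in mice, read 274, 164 and 359 CPM in CAR-deficient libraries, against 129, 109.6 and 167 CPM in wild type libraries, and its log2 fold change of 0.98 was 0.95 without it. Cxcr6, a chemokine receptor of tissue T cells, read 1060.5, 1057 and 679 CPM in CAR-deficient libraries, against 623, 493 and 579 CPM in wild type libraries, with no overlap. Hlx, a homeobox factor of Th1 cells, was the member without overlap on the lower side, with 0.52 ± 0.38 CPM in CAR-deficient cells and 1.77 ± 1.70 CPM in wild type cells. Tnf averaged 213 ± 119 CPM in CAR-deficient cells and 129 ± 22.2 CPM in wild type cells, with the library labelled CAR-deficient a highest at 349 CPM.

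Cytotoxic granule and killer receptor genes had 14 of 20 members above 0 and a median of 0.27, and 0.36 without the library labelled CAR-deficient a. At an unadjusted p under 0.05 stood 2 higher members, Gzma and Klre1, and 0 lower ones, beside 1.86% and 2.45% of all tested genes. Klre1, a killer cell lectin-like receptor, read 37.9, 35.9 and 14.7 CPM in CAR-deficient libraries, against 0.41, 0.58 and 14.99 CPM in wild type libraries. Wild type library c was again the one near the CAR-deficient level. Klrg1, of terminal effector cells, averaged 182 ± 23.2 CPM in CAR-deficient cells and 146 ± 34.5 CPM in wild type cells. Fasl, the death ligand, averaged 392.0 ± 159 CPM in CAR-deficient cells and 215 ± 80.3 CPM in wild type cells. Ctsw, a cathepsin of killer lymphocytes, showed no overlap, with 523 ± 134 CPM in CAR-deficient cells and 347 ± 71.9 CPM in wild type cells. Gzmc, another granzyme, lay lower without overlap, with 0.65 ± 0.58 CPM in CAR-deficient cells and 3.89 ± 0.91 CPM in wild type cells.

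IL-10 and coinhibitory receptor genes had 13 of 19 members below 0 and a median of -0.32, with 0 members at an unadjusted p under 0.05. Il10 (ENSMUSG00000016529, chr1:131019845-131024974), a cytokine that restrains inflammation, read 148, 87.5 and 83.1 CPM in CAR-deficient libraries, against 574, 251 and 33.7 CPM in wild type libraries. It lay lower in pairs a and b and higher in pair c, by -1.95, -1.51 and 1.28 on the log2(CPM + 1) scale. The log2 fold change was -1.43 ± 0.96 (edgeR, adjusted p = 1.00). Lag3, an inhibitory receptor, averaged 1.62 ± 0.50 CPM in CAR-deficient cells and 3.92 ± 1.35 CPM in wild type cells, without overlap. Regulatory T cell genes had 10 of 16 members below 0, and Ikzf2, the factor Helios, averaged 85.1 ± 42.2 CPM in CAR-deficient cells and 146 ± 17.7 CPM in wild type cells. Foxp3, their defining factor, read 0, 0 and 5.48 CPM in CAR-deficient libraries, against 0, 0.79 and 7.10 CPM in wild type libraries.

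Th17 genes had 13 of 21 members below 0 and a median of -0.37, which was -0.01 without the library labelled CAR-deficient a. Members without overlap made up 4.76% of the list, beside 8.33% of all tested genes. The 1 such member, Tgfbr1, a receptor for TGF-beta, lay higher, with 14.9 ± 1.02 CPM in CAR-deficient cells and 9.59 ± 2.87 CPM in wild type cells. The 1 member at an unadjusted p under 0.05, the chemokine gene Ccl20, was read in CAR-deficient library b alone, at 3.37 CPM. Il17a read 0, 0.51 and 0 CPM in CAR-deficient libraries, against 0, 0.76 and 28.4 CPM in wild type libraries, so wild type library c held nearly all of it. Il21, a cytokine of helper cells, read 60.2, 104 and 19.5 CPM in CAR-deficient libraries, against 478, 184 and 28.6 CPM in wild type libraries, lower in each pair by ending. The costimulatory receptors Icos and Tnfrsf4 (OX40) had log2 fold changes of -0.76 ± 0.44 and -1.37 ± 0.83 and wild type library a as the highest of the 6, at 1004 and 975 CPM.

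Genes of gut homing and residency had 17 of 29 members above 0, with a median of 0.17 that was -0.02 without the library labelled CAR-deficient a, and 0 members at an unadjusted p under 0.05. Itgae, the integrin chain CD103 that binds epithelium, read 38.9, 103 and 28.5 CPM in CAR-deficient libraries, against 17.6, 4.22 and 36.0 CPM in wild type libraries. Itga1, the collagen-binding alpha 1 chain, read 11.5, 26.8 and 8.48 CPM in CAR-deficient libraries, against 5.09, 4.33 and 4.27 CPM in wild type libraries, without overlap. CAR-deficient library b held the highest level of both. Ccr9, the homing receptor of the small intestine, averaged 17.6 ± 9.21 CPM in CAR-deficient cells and 27.0 ± 21.1 CPM in wild type cells. Il7r, a survival receptor, read 265, 159.5 and 122 CPM in CAR-deficient libraries, against 24.02, 32.3 and 144 CPM in wild type libraries.

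Metabolic and stress lists showed small medians. Glycolysis and hypoxia genes had 15 of 22 members below 0 (median -0.23), and the 4 without overlap, Egln3, Pgam1, Pgk1 and Slc2a1, were all lower, where 4.52% of all tested genes are lower without overlap. Egln3, an oxygen-sensing prolyl hydroxylase, read 1.94, 0.25 and 0.32 CPM in CAR-deficient libraries, against 7.62, 3.57 and 7.64 CPM in wild type libraries. Cholesterol and fatty acid synthesis genes had 19 of 26 members below 0 (median -0.27). Odc1, the first enzyme of polyamine synthesis, read 159.6, 94.3 and 345 CPM in CAR-deficient libraries, against 882, 443 and 413 CPM in wild type libraries (log2 fold change -1.54 ± 0.54), while the whole polyamine list had 6 of 13 members above 0. Arg1, which makes ornithine, and Paox, a polyamine oxidase, lay higher without overlap, Paox with 9.71 ± 3.88 CPM in CAR-deficient cells and 4.41 ± 0.46 CPM in wild type cells. The mitochondrial chaperone Hspa9 averaged 31.8 ± 14.3 CPM in CAR-deficient cells and 68.2 ± 16.6 CPM in wild type cells, and Ern1, the sensor IRE1 of unfolded proteins, averaged 13.5 ± 5.08 CPM in CAR-deficient cells and 6.07 ± 1.04 CPM in wild type cells. Of 30 receptor complex and signalling genes 15 lay above 0 and 15 below. Cd6, a scavenger-type coreceptor, averaged 70.0 ± 5.57 CPM in CAR-deficient cells and 106 ± 23.9 CPM in wild type cells, without overlap.

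Markers of other cell types were mostly low, and some sums differed between genotypes. Of 20 epithelial markers 12 were tested, 11 above 0 (median 2.15) and 3 at an unadjusted p under 0.05, Krt8, Cdh1 and Phgr1. All 3 lay higher, where 1.86% of all tested genes are higher by this rule. Krt8 and Phgr1 were each read in 1 CAR-deficient library only, at 3.68 CPM in a and 1.73 CPM in b, and Cdh1 read 0, 7.08 and 0.39 CPM in CAR-deficient libraries, against 0.05, 0.18 and 0.07 CPM in wild type libraries. Their summed level was 32.2, 19.5 and 17.1 CPM in CAR-deficient libraries, against 6.35, 10.2 and 9.97 CPM in wild type libraries, without overlap. Epcam, a defining epithelial marker, read 0, 3.03 and 4.73 CPM in CAR-deficient libraries, against 0.77, 1.95 and 1.40 CPM in wild type libraries, and 8 markers, among them Vil1, Muc2 and Cdx2, were too low to test. Myeloid markers summed to 154, 270.0 and 177 CPM in CAR-deficient libraries, against 225, 313 and 292 CPM in wild type libraries, with 11 of 16 below 0. Stromal, endothelial and erythroid markers summed to 127, 79.0 and 80.8 CPM in CAR-deficient libraries, against 404, 71.8 and 75.6 CPM in wild type libraries, so wild type library a stood apart. Markers of CD8, NK and innate lymphoid cells summed to 1053, 1230.0 and 318 CPM in CAR-deficient libraries, against 703, 595 and 337 CPM in wild type libraries, with 4 of 10 above 0. Cd7, described above as a surface protein of T and NK cells, held most of these sums in libraries a and b, so they do not measure other cells alone. Of 11 B and plasma cell markers 3 were tested, all below 0, and the summed level was 18.8, 3.03 and 53.9 CPM in CAR-deficient libraries, against 0.63, 14.9 and 119 CPM in wild type libraries. In a bulk sample fewer cells of a type and less RNA per cell cannot be told apart, and the part of these cells in the differences above was not tested.

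Chromosome 1 carries both Ptprc and Nr1i3, and 8 of the 30 genes of smallest p lie on it, 3 higher and 5 lower, where 5.92% of tested genes do. Those 30 were picked by p and overlap. Over all 880 tested genes of chromosome 1, 31 higher and 33 lower showed no overlap (7.27%), beside 8.33% of all tested genes. Within 10 Mb of Ptprc 95 genes were tested, 47 above 0 and 47 below, with 4 higher and 4 lower without overlap (8.42%). Within 10 Mb of Nr1i3 173 genes were tested, 84 above 0 and 88 below, with 9 higher and 6 lower without overlap (8.67%). Both shares stand near the 8.33% of all tested genes. Btg2, Il10 and Cd55b lie in the first window, and Tomm40l, Ifi211 and Fmo1 in the second. Cd55b, a complement decay-accelerating factor named after its values were seen, read 0 in CAR-deficient libraries, against 0.59, 0.47 and 2.26 CPM in wild type libraries. Ptprc itself read 2531, 2449 and 1506 CPM in CAR-deficient libraries, against 1665, 1564 and 1159 CPM in wild type libraries, with a log2 fold change of 0.56 ± 0.28 (edgeR, adjusted p = 1.00).

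**Figure D5:**
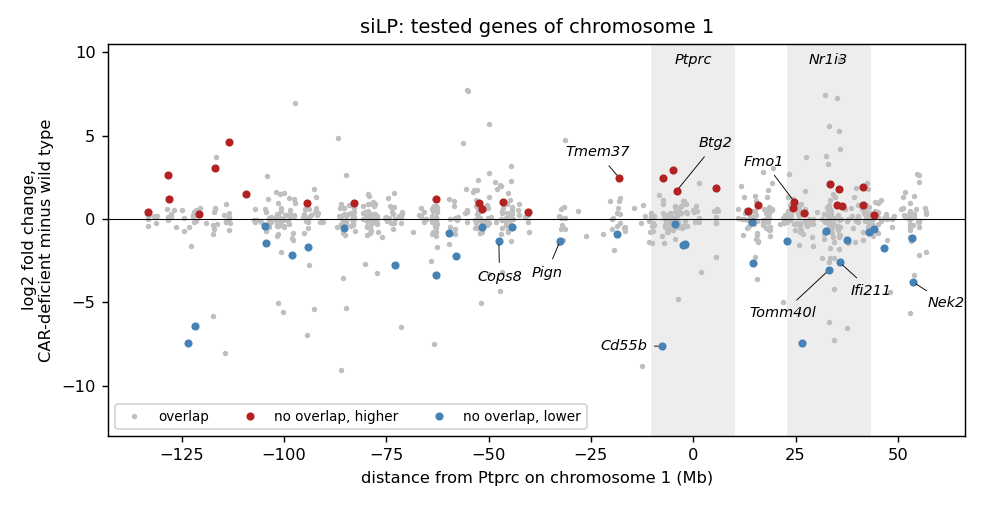
Fitted log2 fold change, CAR-deficient minus wild type, of the 880 tested genes of chromosome 1 against their distance from Ptprc in Mb, with genes whose siLP libraries do not overlap in red (31 higher) and blue (33 lower). Grey bands span 10 Mb to each side of Ptprc and Nr1i3, and genes of both directions lie inside and outside them.

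Whether a genotype difference was particular to siLP was tested as the difference between its effect there and the mean of its effects in spleen and cLP. By edgeR the adjusted threshold was passed by 0 of 14876 genes (0%), while 374 (2.51%) had an unadjusted p under 0.05, DESeq2 called 12 and voomWithQualityWeights 0. The difference for Btg2 was 0.06 ± 0.40 on the log2 scale, and that for Gzma -0.13 ± 0.93. For Cops8 it was -1.14 ± 0.39 (unadjusted p = 0.00988) and for Tbc1d19 6.37 ± 1.98 (unadjusted p = 0.00535 by edgeR), neither past the adjusted threshold. No genotype difference was thus shown to be particular to siLP.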

How the data were processed

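Messenger RNA of sorted cells was amplified with the SMART-Seq v4 kit and made into libraries with NEBNext Ultra II, per the labels' protocols. The deposited table holds estimated counts per gene for each library, per the file headers. Salmon, DESeq2 and mm10 appear in the submitters' processing notes without versions, and the annotation used is not given in the sources used here. Symbols and positions come from GENCODE vM21, which matched all 34162 identifiers. Columns name the organ and CD45.1 positive or negative, and negative ones were taken as CAR-deficient. Another 37 columns were not used.

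Estimated counts, deposited by the authors, were rounded. Genes were kept by filterByExpr, and all 18 libraries were fitted as 6 groups with edgeR 4.0.16 (R 4.3.3; TMM, glmQLFit, glmQLFTest, two-sided, Benjamini-Hochberg over 14876 genes, threshold 0.05). SE was taken as |log2 fold change| divided by the root of the F statistic. DESeq2 1.42.0 and limma 3.58.1 served as alternatives. The code was tested on simulated data. Counting floors of 3 counts over a group correspond to 0.0447 CPM in CAR-deficient and 0.0407 CPM in wild type cells and cover counting error only, since reads are PCR copies. An exact permutation of 3 against 3 libraries allows no p below 0.1, so none is given.

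Named genes are 13 fixed genes, the 15 per direction of smallest p without overlap whose mean reached 5 CPM in 1 genotype, the 10 per direction of smallest p with the column ending and 3 agreeing pairs, genes under 3 counts in each library of 1 genotype, and up to 4 per list. The text shortens the longest sets. The members, lists and tests were chosen with earlier results of these data known. Some genes are not reported here.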

Additional observations from a re-analysis of the deposited data

How the results depend on the processing

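The count of 0 genes past the adjusted threshold held in every edgeR setting tried and in each fit without 1 siLP library, while DESeq2 called 35 (9 higher, 26 lower) and 12 for the difference between organs, and voomWithQualityWeights 2 (2 higher). Unadjusted counts depended on the samples fitted. They were 140 higher and 158 lower with the 6 siLP libraries only, 141 and 197 with these and the replicate block (column ending), 559 and 615 without a low count filter, and 119 and 224 without both libraries a. Leaving out 1 siLP library gave 183 (without wild type a) to 419 (without wild type b) higher and 260 to 584 (without CAR-deficient c) lower. Genes without overlap then numbered 1112 to 1580 higher and 1109 to 1658 lower, and 2202 and 2361 without both libraries a, since fewer libraries overlap less often by construction.

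The column endings were not taken as pairing, since libraries of the same ending deviated together with r = 0.144, 0.0439 and 0.177, not all above 0.1. This rule used the siLP libraries alone. Ending a stood apart in every organ, as given above, and the part of the ending in the results was not tested. Each CAR-deficient library correlated best with the wild type library of its ending, but wild type b did so with CAR-deficient c. With the replicate block (column ending) the unadjusted counts were 402 higher and 527 lower, and 0 passed.

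A few folds turned sign, and they span these ranges over the fits without 1 siLP library. Nr1i3 ran from -3.57 (without the library labelled CAR-deficient a) to 9.12 (without wild type b), and it had -0.26 by voomWithQualityWeights and -4.08 without both libraries a. Ifng ran from -0.27 (without the library labelled CAR-deficient a) to 1.59 (without wild type a), Foxp3 from -8.86 (without CAR-deficient c) to 2.18 (without wild type c), and Abcb1b from -0.66 (without CAR-deficient c) to 0.050 (without wild type c). Foxp3 had 0.08 without CAR-deficient a or b. The Nr1i3 values -3.57, -4.08 and 9.12 and the Foxp3 value -8.86 have 1 genotype at 0 in all libraries left, so their size depends on the prior count. The cause of the other changes of sign was not tested. Depth limits genes near the floor, and 455 tested genes were at 0 in every library of 1 genotype.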

Other observations

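Clustered histone genes, most of which are transcribed in S phase, were looked up after the values had been seen and get no test. How well the amplification used here catches their transcripts was not tested, so their levels are not a measure of S phase. Of 65 tested, 42 lay below 0 and 23 above in CAR-deficient cells, with 13 lower and 1 higher without overlap, where 4.52% and 3.8% of all tested genes are. At an unadjusted p under 0.05 stood 3 lower and 3 higher members, beside 2.45% and 1.86% of all tested genes. Their summed level was 2710.1, 2742 and 2339 CPM in CAR-deficient libraries, against 4274, 3569 and 3785 CPM in wild type libraries. Hist1h2ap, a histone H2A gene, had 1332, 1497 and 1575 CPM in CAR-deficient libraries, against 3006, 2318 and 2775 CPM in wild type libraries. This gene alone held a large part of each sum, so the sums do not describe the family as a whole. Hist1h4n, a histone H4 gene, went the other way, with 104, 89.7 and 40.2 CPM in CAR-deficient libraries, against 31.2, 35.3 and 26.3 CPM in wild type libraries. Copies of these genes are nearly identical, so their estimated counts may be shared among them.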
